A study of Mus musculus with 9 samples.

Results

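Extracellular nucleotide enzymes and purine receptors are the subject here: 10 genes, namely the ectoenzymes Alpl, Entpd1 and Nt5e, the adenosine receptors Adora2a and Adora2b, the ATP-gated channels P2rx4 and P2rx7, and the P2Y-type receptors P2ry6, P2ry10 and P2ry14. They were found as rows of the count table with these exact gene symbols, 10 of 55278 named rows. The list was chosen on a measured value: Alpl had been seen almost only in XCR1 libraries, and the other 9 genes were placed around it as enzymes and receptors of the same system. The levels of Alpl in XCR1 against the other populations are therefore a description, given without a test.

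The data are RNA-seq counts from 9 libraries of dendritic cells sorted from the thymus of C57BL/6 mice of 8 weeks, 3 libraries for each of 3 populations called CD301b, SIRPa and XCR1. No treatment or genetic change is stated, so all groups are of this strain. The sources used here do not give the sorting gates. The design text speaks of 3 mice, but nothing says which libraries share an animal, so a p-value here reflects how far these particular libraries spread, which may be technical. Sample labels give the source as thymocytes and the cell type as thymic dendritic cells.

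ATP that leaves stressed or dying cells is a danger signal read by P2X channels, while ectoenzymes on the cell surface turn it step by step into adenosine, which mostly restrains immune cells. CD39, encoded by Entpd1, removes phosphates from ATP and ADP to give AMP. CD73, encoded by Nt5e, turns AMP into adenosine, and tissue-nonspecific alkaline phosphatase, encoded by Alpl, can remove phosphates from all of these and from pyrophosphate. Dendritic cells carry receptors for both ends of this chain, and in the thymus they sit among large numbers of thymocytes that die during selection.

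Promoter sequences are shown for 4 of these genes, so that their starts can be compared. Of these, 2 had higher levels in XCR1 than in the other libraries (Alpl, P2ry10) and 2 had lower levels there (Adora2b, P2rx4). They are a choice and not all members with these orders. P2ry14 was also higher and Nt5e also lower in every XCR1 library, and their windows are not printed. RefSeq's table for build GRCm38.p6, the patched form of mm10, matched 8 of the 10 genes. Each line gives the 250 bases before an annotated start, 5′ to 3′ on the gene's strand, and none of these bases lies in a GENCODE M21 exon of the same gene. Capitals mark matches, on either strand, to the TATA-box letters TATAAA, the GC-box letters GGGCGG, the ETS-type letters GAGGAA, the AP-1-type letters TGANTCA or the interferon-response type GAAANNGAA. The capitalised stretches can hold overlapping matches. Alpl has an upstream start (chr4:137796385-137796634, minus strand) and a start inside the gene (chr4:137766476-137766725, minus strand). The others are P2ry10 (chrX:107088242-107088491, plus strand), Adora2b (chr11:62248734-62248983, plus strand) and P2rx4 (chr5:122707294-122707543, plus strand).
Alpl, upstream start: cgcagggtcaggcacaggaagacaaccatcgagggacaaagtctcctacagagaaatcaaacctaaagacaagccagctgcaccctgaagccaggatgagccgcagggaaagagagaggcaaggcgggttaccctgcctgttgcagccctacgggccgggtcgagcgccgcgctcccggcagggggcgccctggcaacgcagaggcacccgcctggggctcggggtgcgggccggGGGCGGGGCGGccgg
Alpl, internal start: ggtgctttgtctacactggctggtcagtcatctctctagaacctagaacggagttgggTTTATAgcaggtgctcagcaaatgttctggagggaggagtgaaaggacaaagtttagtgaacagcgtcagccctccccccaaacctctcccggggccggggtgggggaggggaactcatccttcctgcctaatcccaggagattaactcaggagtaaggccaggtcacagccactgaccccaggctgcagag
P2ry10: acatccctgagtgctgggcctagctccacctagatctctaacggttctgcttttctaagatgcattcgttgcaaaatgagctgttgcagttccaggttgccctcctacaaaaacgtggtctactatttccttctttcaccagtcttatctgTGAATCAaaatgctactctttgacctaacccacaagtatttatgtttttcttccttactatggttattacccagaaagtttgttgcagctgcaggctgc
Adora2b: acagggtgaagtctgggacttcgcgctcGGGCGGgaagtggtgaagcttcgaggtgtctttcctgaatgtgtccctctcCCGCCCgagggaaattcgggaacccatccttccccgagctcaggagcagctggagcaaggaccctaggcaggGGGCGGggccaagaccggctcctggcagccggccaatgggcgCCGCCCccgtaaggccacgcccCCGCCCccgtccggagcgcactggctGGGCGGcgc
P2rx4: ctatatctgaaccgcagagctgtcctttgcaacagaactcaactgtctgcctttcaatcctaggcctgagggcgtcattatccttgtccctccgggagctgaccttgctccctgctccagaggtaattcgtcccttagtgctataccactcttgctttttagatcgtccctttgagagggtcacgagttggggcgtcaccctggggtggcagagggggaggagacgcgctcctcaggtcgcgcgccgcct

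The upstream Alpl window held 2 matches to GGGCGG and the Adora2b window held 6, a motif present in 32.7% of 32851 such windows. The internal Alpl window held 1 match to TATAAA, found in 12.4% of windows, and lacked GGGCGG. The P2ry10 window held 1 match to TGANTCA, found in 6.75% of windows, and the P2rx4 window held 0 matches to any of the 5 motifs. GAGGAA and GAAANNGAA, present in 23.3% and 7.13% of windows, had 0 matches in these 5. Windows of other genes and starts were not printed, and some hold GAGGAA or TGANTCA. For GAGGAA, the second P2ry10 start has 1 match and overlaps P2ry10 exons, and the second Entpd1 start has 2 matches. The 4 P2ry14 windows have 1 GAGGAA match each, 3 of them overlapping P2ry14 exons. TGANTCA was also matched in windows of P2ry14 and of P2rx7, a gene that passed in no comparison. The GC content was 68.4% for the upstream and 56.0% for the internal Alpl window, 69.6% for Adora2b, 57.2% for P2rx4 and 43.2% for P2ry10. Gene-level counts do not tell which Alpl start was used.

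The libraries held 20246092 to 25438864 counts. Levels are counts scaled to a common library total (CPM) on library sizes scaled by the trimmed mean of M values (TMM-normalised CPM), and 1 count corresponded to 0.0398 to 0.0499 CPM. The populations carried the transcripts they are named for: Xcr1 stood at 663 to 854 CPM in XCR1 and at most 15.6 in the other libraries, Sirpa at 600 to 841 CPM in CD301b and SIRPa and at most 14.6 in XCR1, and Mgl2, which encodes CD301b, at 566 to 683 CPM in CD301b and at most 28.3 elsewhere. Markers of other cells were present. Together, 8 genes of thymocytes and T cells reached 305 to 437 CPM in CD301b, 400 to 497 in SIRPa, and 75.6, 69.98 and 412 in XCR1 replicates 1 to 3. The sum of 6 macrophage genes was 1195 to 1366 CPM in CD301b, 1938 to 2216 in SIRPa and 11.9 to 33.7 in XCR1. The 4 plasmacytoid dendritic cell genes summed to 380 to 493 CPM in CD301b, 226 to 267 in SIRPa and 53.6 to 62.0 in XCR1. Most of this was Tcf4. The 6 B cell genes summed to 7.33 to 8.34, 16.3 to 28.3 and 2.44 to 14.3 CPM in the same order. The 4 NK cell genes summed to 25.1 to 30.6, 33.2 to 45.4 and 57.6 to 73.5 CPM. The 5 thymic epithelium genes summed to at most 17.1 CPM in any library. Cd4, which some dendritic cells also carry, made up most of the thymocyte and T cell sum in CD301b and SIRPa, and was the gene of that list that passed against XCR1. Without Cd4, a split chosen after its values were seen, the other 7 genes summed to 96.2 to 196 CPM in CD301b, 82.5 to 215 in SIRPa, and 60.5, 52.7 and 373 in XCR1 replicates 1 to 3. XCR1 replicate 3 stood apart from the other XCR1 libraries in the thymocyte sum and in the sum of 8 granulocyte genes, 40.7 CPM against 0.449 and 1.38.

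**Figure D1:**
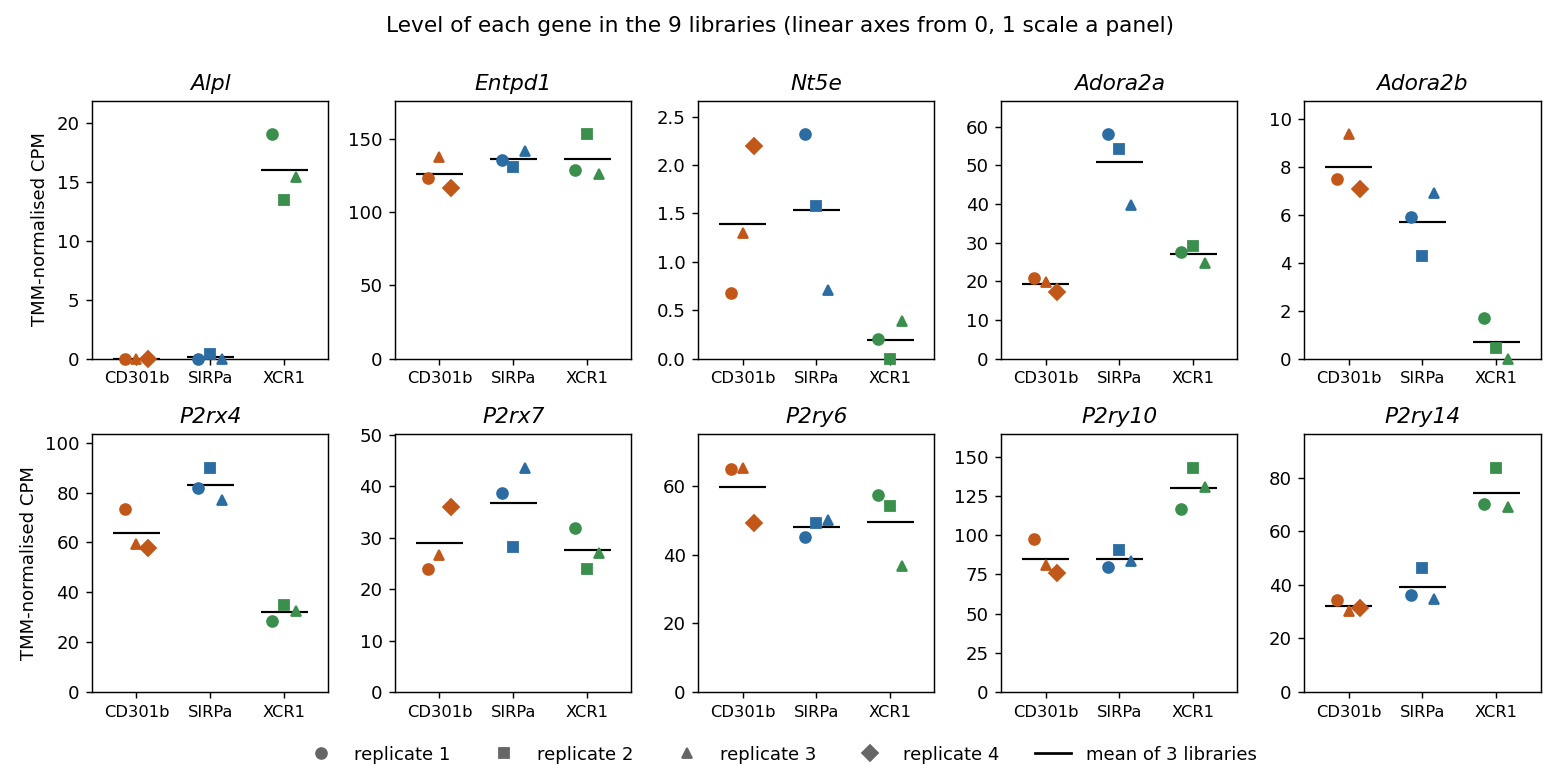
Level of each of the 10 genes in TMM-normalised CPM (vertical axes, linear and starting at 0) in the 9 libraries by population. Points are libraries, with the shape giving the replicate number, and the black line is the mean of 3. Alpl stands at 13.5 to 19.1 CPM in XCR1 and at 0 to 0.351 elsewhere, P2ry10 and P2ry14 are highest in XCR1, and Adora2b and P2rx4 are lowest there.

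Among the enzymes, Alpl was seen nearly only in XCR1 libraries, Entpd1 was abundant in all 9, and Nt5e was scarce in all 9. Alpl (ENSMUSG00000028766, chromosome 4, 137741733 to 137796384, minus strand) had 382, 284 and 320 counts in XCR1 replicates 1 to 3, or 19.1, 13.5 and 15.4 CPM. It had 0 counts in each CD301b library and in SIRPa replicates 1 and 3, and 8 counts, 0.351 CPM, in SIRPa replicate 2. The XCR1 mean was 16.0 ± 2.82 CPM (SD, n = 3), at least 370-fold above CD301b when CD301b is set to the floor of 3 counts over its 3 libraries, 0.0432 CPM. It was 137 times the SIRPa mean of 0.117 ± 0.203 CPM (SD, n = 3), a ratio that rests on SIRPa replicate 2 alone, since the other SIRPa libraries had 0. SIRPa replicate 2 also had the most Xcr1 of the SIRPa libraries, 15.6 CPM against 6.58 and 6.65 in replicates 1 and 3. The part of RNA from XCR1 cells in the Alpl level of SIRPa replicate 2 was not tested.

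Alkaline phosphatase is also a product of neutrophils and of stromal cells. In XCR1 replicates 1 and 2, where Alpl stood at 19.1 and 13.5 CPM, the 8 granulocyte genes summed to 0.449 and 1.38 CPM, and Ly6g had 0 counts in all XCR1 libraries. The granulocyte sum was higher in SIRPa libraries than in XCR1 replicates 1 and 2, at 14.9 to 61.7 CPM, where Alpl stood at 0 to 0.351 CPM. Counted over each group, 7 of 8 granulocyte markers were detected in SIRPa and 7 of 8 in XCR1. In XCR1 replicate 3, Alpl stood at 15.4 CPM beside a granulocyte sum of 40.7. The 8 stromal and endothelial genes summed to 54.3 to 69.3 CPM in XCR1, 235 to 282 in CD301b and 216 to 267 in SIRPa, nearly all of it from the endothelial genes Kdr, Pecam1 and Cdh5. The 5 stromal genes alone, a split made after the values were seen, summed to 0.950 to 2.15 CPM in XCR1, 0.126 to 2.23 in CD301b and 0.747 to 2.70 in SIRPa. Among them, Col3a1 stood at a mean of 0.533 CPM in XCR1 and had 0 counts in CD301b and SIRPa. The part of granulocyte or stromal RNA in the level of Alpl was not tested.

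Entpd1 (ENSMUSG00000048120, chromosome 19, 40612366 to 40741602, plus strand) stood at 123, 138 and 117 CPM in CD301b replicates 1, 3 and 4, at 136, 131 and 142 in SIRPa replicates 1 to 3, and at 129, 153 and 126 in XCR1 replicates 1 to 3. The ranges of the 3 populations overlapped. By edgeR's quasi-likelihood test, adjusted by Benjamini-Hochberg over 15417 genes, none of its 3 comparisons passed the threshold of 0.05. The log2 fold changes were -0.12 ± 0.12 (SE) for CD301b over SIRPa (adjusted p = 0.782), -0.11 ± 0.12 for CD301b over XCR1 (0.569) and 0.0015 ± 0.12 for SIRPa over XCR1 (0.997).

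Nt5e (ENSMUSG00000032420, chromosome 9, 88327197 to 88372092, plus strand) had 17, 31 and 45 counts in CD301b, 49, 36 and 15 in SIRPa and 4, 0 and 8 in XCR1. These are 0.677 to 2.20 CPM in CD301b, 0.707 to 2.32 in SIRPa and 0 to 0.386 in XCR1, so every XCR1 library lay below every other library. The differences did not pass with edgeR (log2 2.80 ± 1.38, adjusted p = 0.169, for CD301b over XCR1, and 2.94 ± 1.39, adjusted p = 0.143, for SIRPa over XCR1), at counts that give wide errors. DESeq2 gave adjusted p = 0.0412 for the latter. Within XCR1 the largest count was in replicate 3, the library with the high thymocyte sum, and CD73 is also known from T cells. The part of thymocyte RNA in the level of Nt5e was not tested. In bulk libraries a smaller share of expressing cells and less RNA per cell cannot be told apart.

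Of the adenosine receptor genes, Adora2a and Adora2b differed between populations and had different orders, while Adora1 and Adora3, which are not among the 10 genes and were at group means of 0.240 to 1.78 CPM, passed in 0 of 3 comparisons (edgeR adjusted p from 0.548 to 0.952). Both receptors raise cyclic AMP. Adora2a encodes the receptor of high affinity, and Adora2b the one that needs more adenosine. Adora2a (ENSMUSG00000020178, chromosome 10, 75316877 to 75334784, plus strand) stood at 58.0, 54.3 and 39.8 CPM in SIRPa replicates 1 to 3, at 27.4, 29.2 and 24.7 in XCR1 replicates 1 to 3, and at 20.8, 19.8 and 17.1 in CD301b replicates 1, 3 and 4. The ranges of the 3 populations did not overlap. Adora2a was lower in CD301b than in SIRPa, with means of 19.2 ± 1.93 and 50.7 ± 9.61 CPM (SD, n = 3 each) and a log2 fold change of -1.40 ± 0.19 (edgeR adjusted p = 0.000106). SIRPa exceeded XCR1 by 0.90 ± 0.19 on the log2 scale (0.00104), and CD301b and XCR1 were neighbours that did not pass (-0.49 ± 0.19, 0.0671). Thymocytes and T cells also make this receptor. In XCR1 replicate 3, where the thymocyte sum was 412 CPM against 69.98 and 75.6, Adora2a was at 24.7 CPM, the lowest of the 3 XCR1 libraries. Without that library the SIRPa over XCR1 difference was 0.84 (adjusted p = 0.00609). The part of thymocyte RNA in the level of Adora2a was not tested.

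Adora2b (ENSMUSG00000018500, chromosome 11, 62248984 to 62266453, plus strand) stood at 7.49, 9.35 and 7.05 CPM in CD301b, 5.92, 4.26 and 6.88 in SIRPa and 1.70, 0.428 and 0 in XCR1. The XCR1 libraries, with 34, 9 and 0 counts, all lay below the others. CD301b exceeded XCR1 by 3.49 ± 0.84 on the log2 scale (edgeR adjusted p = 0.00521) and SIRPa did by 3.00 ± 0.82 (0.0118). Adora2b passed the filter on low counts through CD301b and SIRPa and not through XCR1. With no such filter the edgeR differences were 3.47 (adjusted p = 1.32e-06) and 2.99 (3.31e-05). That fit used the same counts, with the spread estimated over more genes, so its smaller p-values give no separate support. The SIRPa difference did not pass without XCR1 replicate 2 (2.74, adjusted p = 0.0563). Without XCR1 replicate 1, the library with 34 counts, the differences were 5.18 and 4.69, and with limma-voom 4.92 and 4.40, so the size of the fold is uncertain. CD301b and SIRPa did not overlap either, but this difference of 0.49 ± 0.74 did not pass (0.892). Macrophages also make this receptor, and the macrophage sum was, like Adora2b, lowest in XCR1. CD301b libraries had the lower macrophage sum of the other populations and the higher Adora2b level. The part of macrophage RNA in the Adora2b level was not tested.

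The ATP-gated channel genes P2rx7 and P2rx4 lie side by side on the plus strand of chromosome 5 with 16111 bases between them, and P2rx4 passed the test against XCR1 where P2rx7 did not. Whether their differences were unequal was not tested. P2X4 opens at low ATP concentrations, and P2X7, which needs far more ATP, is the channel that triggers the inflammasome. P2rx4 (ENSMUSG00000029470, 122707544 to 122729738) stood at 73.5, 59.5 and 57.9 CPM in CD301b, 82.0, 90.1 and 77.0 in SIRPa and 28.6, 34.8 and 32.5 in XCR1. No range overlapped another. Its means were 63.6 ± 8.58, 83.0 ± 6.58 and 32.0 ± 3.15 CPM (SD, n = 3 each). The level exceeded that in XCR1 by 0.99 ± 0.15 on the log2 scale in CD301b (edgeR adjusted p = 3.11e-05) and by 1.38 ± 0.15 in SIRPa (4.28e-07), and CD301b and SIRPa did not pass against each other (-0.38 ± 0.15, 0.190). The macrophage sum had the same order, highest in SIRPa and lowest in XCR1. The part of macrophage RNA in the P2rx4 level was not tested.

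P2rx7 (ENSMUSG00000029468, 122643911 to 122691432) stood at 24.0, 26.7 and 36.1 CPM in CD301b, 38.6, 28.2 and 43.6 in SIRPa and 31.9, 23.8 and 27.1 in XCR1. All 3 ranges overlapped. No comparison passed with edgeR: the log2 fold change was 0.41 ± 0.21 for SIRPa over XCR1 (adjusted p = 0.177), 0.07 ± 0.21 for CD301b over XCR1 (0.885) and -0.35 ± 0.21 for CD301b over SIRPa (0.515). Of its 5970 exonic bases, 119 are shared with the microRNA gene Mir8115 on the same strand. It was the member with this kind of overlap in GENCODE M21, and the other 9 shared 0 exonic bases with another gene.

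All 3 P2Y-type receptors were detected in every library, and P2ry10 and P2ry14 were higher in XCR1 libraries. P2ry14 encodes the receptor for UDP-glucose, a sugar nucleotide released by damaged cells. P2ry14 (ENSMUSG00000036381, chromosome 3, 59113855 to 59153618, minus strand) stood at 70.4, 83.9 and 69.2 CPM in XCR1, 36.1, 46.3 and 34.9 in SIRPa and 34.4, 30.2 and 31.5 in CD301b. Every XCR1 library lay above all others. Its log2 fold change was -1.22 ± 0.16 for CD301b over XCR1 (edgeR adjusted p = 6.33e-06), with means of 32.0 ± 2.17 and 74.5 ± 8.15 CPM (SD, n = 3 each), and -0.93 ± 0.16 for SIRPa over XCR1 (0.000145). CD301b and SIRPa did not pass against each other (-0.29 ± 0.16, 0.459), although their libraries did not overlap.

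P2ry10 encodes a receptor grouped with the P2Y family by sequence, whose known ligand is lysophosphatidylserine. P2ry10 (ENSMUSG00000050921, chromosome X, 107088492 to 107104974, plus strand) stood at 117, 143 and 131 CPM in XCR1, 80.0, 90.3 and 83.6 in SIRPa and 97.5, 81.2 and 76.1 in CD301b. The XCR1 libraries lay above the rest, and CD301b and SIRPa overlapped. Its log2 fold changes over XCR1 were -0.62 ± 0.13 in CD301b (edgeR adjusted p = 0.00107) and -0.62 ± 0.13 in SIRPa (0.000920), and the difference between CD301b and SIRPa was 0.0055 ± 0.13 (0.997).

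P2ry6 encodes the receptor for UDP, which is linked to uptake of dying cells in phagocytes. P2ry6 (ENSMUSG00000048779, chromosome 7, 100937630 to 100974649, minus strand) stood at 65.1, 65.4 and 49.1 CPM in CD301b, 45.1, 49.3 and 50.05 in SIRPa and 57.5, 54.3 and 36.8 in XCR1. All 3 ranges overlapped and no comparison passed, with log2 fold changes of 0.31 ± 0.17 for CD301b over SIRPa (edgeR adjusted p = 0.459), 0.27 ± 0.17 for CD301b over XCR1 (0.306) and -0.04 ± 0.17 for SIRPa over XCR1 (0.918).

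**Figure D2:**
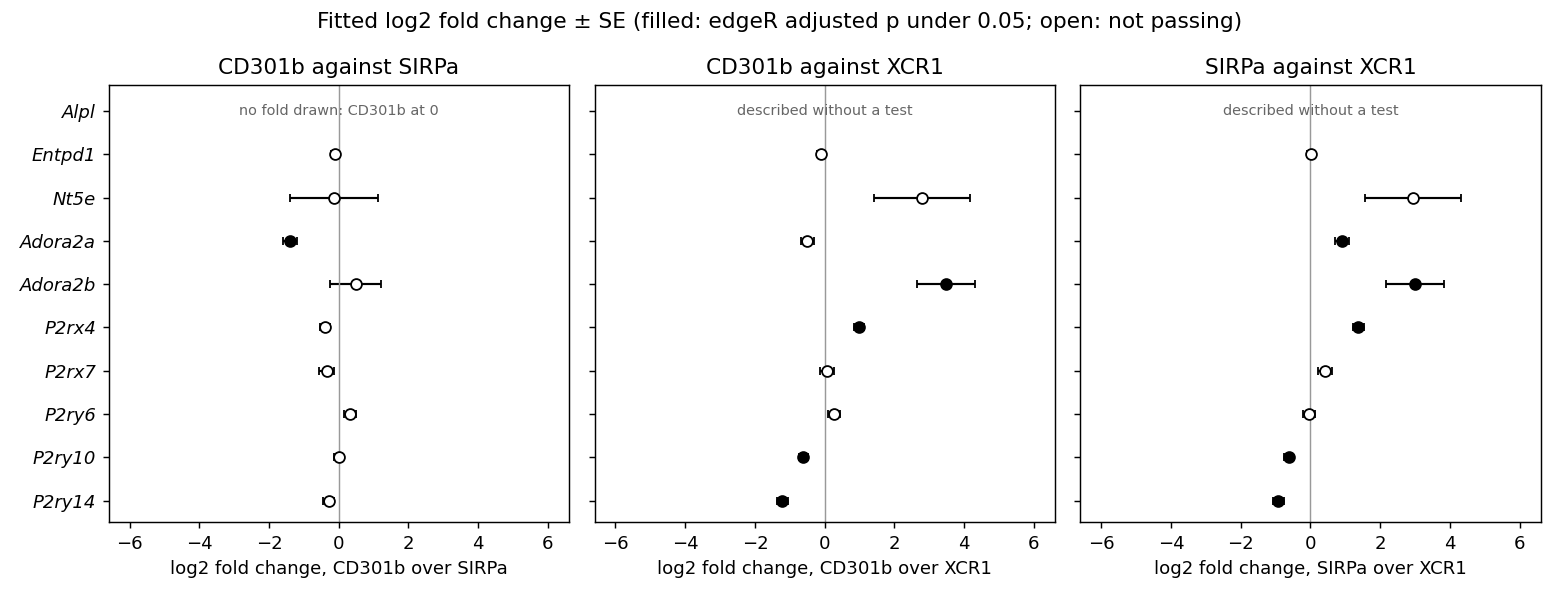
Fitted log2 fold change with its SE (horizontal axes) for the 10 genes in the 3 comparisons. Filled points have an edgeR adjusted p under 0.05, open points do not, and no point is drawn for Alpl, which is at 0 in CD301b and is described without a test against XCR1. Adora2a is the filled point between CD301b and SIRPa, at -1.40. Against XCR1, Adora2b and P2rx4 lie to the right and P2ry10 and P2ry14 to the left in both panels.

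Counted over the members, CD301b against SIRPa gave 1 lower gene of 10 tested, Adora2a, beside 2.08% of all 15417 genes lower, and 0 higher genes beside 2.20%. At an unadjusted p under 0.05 edgeR gave 0 higher and 3 lower, Alpl among them. With adjustment, DESeq2 and limma-voom also called 0 higher and 1 lower. In this comparison 4 of 10 members did not overlap, against 22.1% of all genes tested. The median log2 fold change of the 10 was -0.22, and that of all genes was 0.01. Alpl had an edgeR adjusted p of 0.216 here, on 8 counts in 1 SIRPa library. It is part of the 10 and of their median, although it was picked as nearly absent from both populations. Nothing is read from these counts.

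Against XCR1, 9 members can be counted, Alpl being left out. In CD301b, 2 were higher (Adora2b, P2rx4), 2 lower (P2ry10, P2ry14) and 5 did not pass, where 13.5% of all genes were higher and 9.12% lower. In SIRPa, 3 were higher (Adora2a, Adora2b, P2rx4), 2 lower (P2ry10, P2ry14) and 4 did not pass, where 13.9% of all genes were higher and 10.7% lower. Each of these comparisons had 6 of 9 members without overlap, beside 34.4% of all genes for CD301b and 40.2% for SIRPa. Medians over the 9 were 0.07 and 0.41, against 0.05 and 0.06 over all genes. Because the list was drawn up around a gene of XCR1 libraries and with results known, nothing is read from these counts. All 10 members passed the filter on low counts, but Alpl did so through XCR1 libraries alone, and Nt5e and Adora2b through CD301b and SIRPa, so the filter itself favoured a difference for them. Of the calls against XCR1, 1 in each comparison, Adora2b, was of this kind. Both comparisons use the same XCR1 libraries.

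Levels of different genes were compared per kilobase of exon, as CPM divided by exonic length in GENCODE M21. On this scale P2ry10 was the highest of the 10 in each population, at 28.5 ± 3.76 (SD, n = 3 here and below) in CD301b, 28.4 ± 1.75 in SIRPa and 43.7 ± 4.46 in XCR1 CPM per kilobase. Entpd1 followed, at 22.6 ± 1.95, 24.4 ± 1.01 and 24.4 ± 2.68, and then P2ry6, at 20.7 ± 3.22, 16.7 ± 0.917 and 17.2 ± 3.86. The enzyme that makes AMP stood far above the enzyme that turns AMP into adenosine: Nt5e was at 0.162 ± 0.0891, 0.179 ± 0.0938 and 0.0227 ± 0.0224 CPM per kilobase. In XCR1 libraries Alpl, at 3.97 ± 0.700, was the eighth of the 10, close to P2rx4 at 4.55 ± 0.448 and P2rx7 at 4.63 ± 0.681, and above Nt5e. In CD301b and SIRPa libraries the lowest of the 10 was Alpl. Adora2a exceeded Adora2b in all populations, at 6.28 ± 0.629 against 4.31 ± 0.662 in CD301b, 16.6 ± 3.14 against 3.08 ± 0.718 in SIRPa and 8.85 ± 0.737 against 0.384 ± 0.478 in XCR1 libraries.

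**Figure D3:**
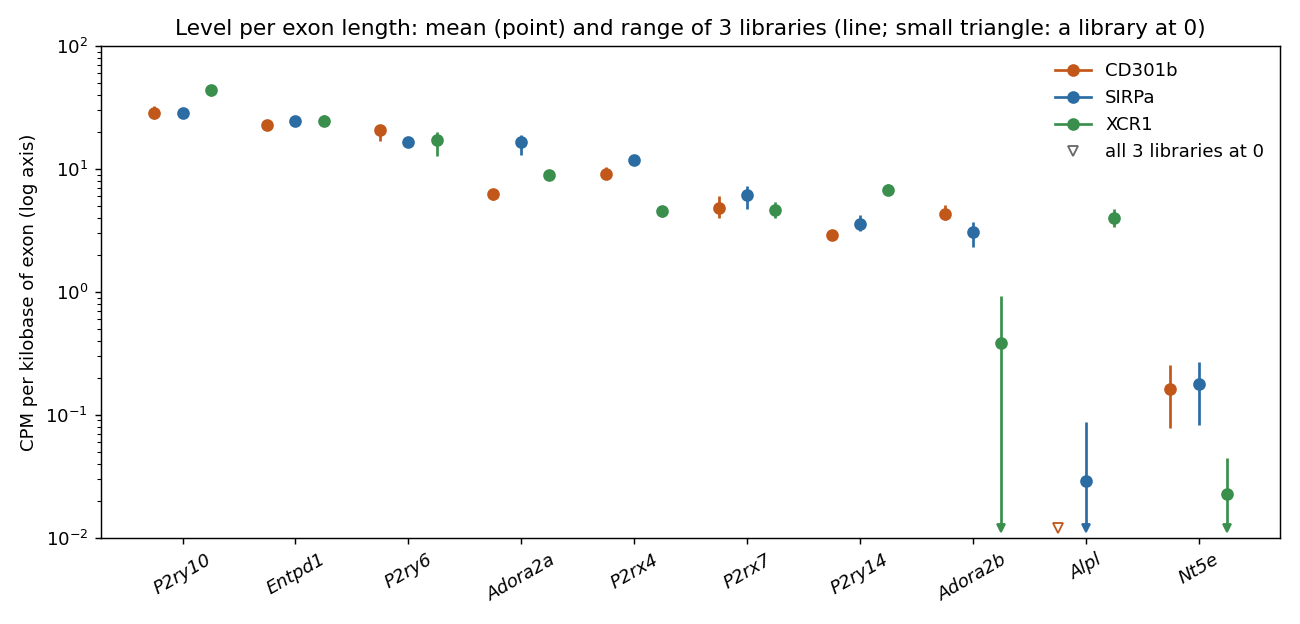
Level of the 10 genes in CPM per kilobase of exon (vertical log axis), with the mean (point) and the range of 3 libraries (line) for each population. Small filled triangles mark a library at 0 and the open triangle a population with all libraries at 0. P2ry10, Entpd1 and P2ry6 lie between 16 and 44 on average, while Nt5e lies under 0.2 and Alpl is near several of the receptors in XCR1 alone.

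The genes closest to Alpl in pattern were found by the root mean square difference of centred log2 CPM over the 9 libraries, among 9478 genes with a mean of at least 5 CPM, leaving out predicted models named Gm or Rik. They were Gpr141b (0.85, annotated as a lincRNA), Notch4 (0.90), Abca13 (1.02), Plpp1 (1.197) and Mpzl2 (1.26), while Alpl itself spanned 7.71 on this scale. Gpr141b stood at 374 ± 38.4 CPM in XCR1, 10.5 ± 4.55 in SIRPa and 5.89 ± 3.59 in CD301b (SD, n = 3 each). Abca13 was near the level of Alpl, at 23.4 ± 8.05, 0.688 ± 0.728 and 0.124 ± 0.152 CPM. Plpp1, a lipid phosphatase of the cell surface, stood at 30.1 ± 0.644, 1.35 ± 1.25 and 1.03 ± 0.264 CPM.

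Other genes of nucleotide and adenosine handling were taken from a list of 43 found in the count table, of which 33 passed the filter on low counts. In CD301b against XCR1, 14 were higher, 3 lower and 16 did not pass, and in SIRPa against XCR1, 12 were higher, 4 lower and 17 did not pass (edgeR, adjusted over all genes). Over all genes tested, 13.5% were higher and 9.12% lower in the first comparison, and 13.9% and 10.7% in the second. Of the higher pathway genes, 4 in CD301b (Entpd3, P2rx6, P2ry1, P2ry13) and 4 in SIRPa (Entpd3, Acpp, P2rx6, P2ry13) passed the filter on low counts without XCR1, so nothing is read from the counts. The median log2 fold changes of the 33 were 0.69 and 0.64, beside 0.05 and 0.06 over all genes, and the medians were the same with genes at 0 in XCR1 set to their bound. In CD301b against SIRPa, 0 were higher, 1 was lower and 32 did not pass, beside 2.20% higher and 2.08% lower over all genes, with 6 higher and 1 lower at an unadjusted p under 0.05. DESeq2 called 0 higher and 1 lower there, and limma-voom 0 higher and 2 lower.

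Among the ectoenzymes of that list, neighbours on chromosome 5 differed in opposite directions. Bst1 (43818885 to 43843986), which encodes the GPI-anchored CD157, and Cd38 (43868553 to 43912375) are related genes for enzymes that act on NAD, lie on the plus strand, and are 24566 bases apart. Bst1 stood at 26.6, 43.2 and 29.9 CPM in XCR1, 11.4, 4.53 and 4.75 in CD301b and 2.74, 2.90 and 4.48 in SIRPa. It was lower than in XCR1 by log2 fold changes of -2.27 ± 0.35 in CD301b (edgeR adjusted p = 4.98e-05) and -3.30 ± 0.37 in SIRPa (7.23e-07). Cd38 stood at 7.33, 6.89 and 7.14 CPM in XCR1, 22.7, 13.5 and 10.6 in CD301b and 39.4, 31.1 and 29.6 in SIRPa. It exceeded XCR1 by 1.13 ± 0.27 in CD301b (edgeR adjusted p = 0.00388, and 0.0574 without CD301b replicate 1) and by 2.23 ± 0.28 in SIRPa (2.87e-06). Cd38 was also the gene lower in CD301b than in SIRPa (-1.10 ± 0.27, 0.0191). Leaving out CD301b replicate 3, CD301b replicate 4, SIRPa replicate 1 or SIRPa replicate 2 ended that call, and the adjusted p ran up to 0.143 over the alternatives. Bst1 shares 98 of its 3317 exonic bases with Fbxl5 on the other strand, and the sources used here do not say whether counting used strand.

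Enpp1, an ectoenzyme that cuts ATP to AMP and pyrophosphate and also degrades cGAMP, was lower in XCR1, at 1.26 ± 0.742 CPM, than in CD301b (9.12 ± 3.38, edgeR adjusted p = 0.000119) and SIRPa (11.2 ± 2.11, 3.86e-05, SD and n = 3 each). Entpd3, another ectonucleotidase, had 0 counts in XCR1, 194 in CD301b and 28 in SIRPa, and so passed the filter through CD301b. Set against the XCR1 floor of 3 counts over the group, it was at least 58.4-fold higher in CD301b and at least 8.82-fold higher in SIRPa. The SIRPa call ended with limma-voom and without CD301b replicate 3, SIRPa replicate 3 or any single XCR1 library, with adjusted p up to 0.291. These 2 genes, like those of the next paragraphs other than Xdh, Slc29a3, Panx1, Dpp4 and Pnp, are named after their values were seen.

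The ATP-release channel Panx1 and the ADP receptors P2ry12 and P2ry13 were lower in XCR1 than in both other populations. Panx1, the pannexin pore through which cells let out ATP, had mean levels of 27.3 ± 3.80 CPM for CD301b, 21.3 ± 4.74 for SIRPa and 4.67 ± 1.85 for XCR1 (SD, n = 3 each), with log2 fold changes over XCR1 of 2.55 ± 0.29 (edgeR adjusted p = 9.73e-07) and 2.19 ± 0.29 (6.26e-06). P2ry12 encodes an ADP receptor known from platelets and microglia. P2ry12 stood at 23.2 ± 4.45, 22.7 ± 1.48 and 3.69 ± 1.75 CPM in the same order (adjusted p = 2.60e-06 and 2.93e-06 against XCR1). P2ry13, the other ADP receptor of this kind, stood at 35.0, 19.6 and 14.7 CPM in CD301b, 60.7, 50.5 and 50.1 in SIRPa and 0.549, 0.285 and 3.67 in XCR1. The highest XCR1 value was in replicate 3, which also had the highest macrophage sum of the XCR1 libraries, 33.7 CPM against 12.7 and 11.9. P2ry13 passed the filter on low counts through CD301b and SIRPa and not through XCR1, so the filter favoured a difference for it. Against XCR1 its edgeR adjusted p was 0.0144 for CD301b and 0.00453 for SIRPa. The CD301b call ended with the replicate number as a block (0.109). On the minus strand of chromosome 3, P2ry13 lies 5389 bases from P2ry12 and 54273 bases from P2ry14, and of these neighbours P2ry14 was highest in XCR1 while P2ry12 and P2ry13 were lowest there. P2ry12, P2ry13 and the macrophage genes were all low in XCR1, and the part of macrophage RNA in these levels was not tested.

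Genes of purine metabolism differed from XCR1 in both directions. The nucleoside transporter genes that passed, Slc29a1 and Slc29a3, were higher in CD301b and in SIRPa than in XCR1. Ada, adenosine deaminase, passed in no comparison (edgeR adjusted p = 0.407 for CD301b against SIRPa, 0.959 for CD301b against XCR1 and 0.221 for SIRPa against XCR1). Slc29a3, a nucleoside transporter of lysosomes, had means of 233 ± 10.7 CPM for CD301b, 262 ± 10.5 for SIRPa and 119 ± 10.2 for XCR1 (SD, n = 3 each). Its log2 fold changes over XCR1 were 0.97 ± 0.10 (edgeR adjusted p = 3.59e-07) and 1.14 ± 0.10 (3.73e-08). Xdh, which oxidises hypoxanthine to uric acid, had the smallest adjusted p of the list, at 65.0 ± 13.7, 53.0 ± 10.5 and 7.05 ± 0.506 CPM (1.43e-10 and 5.70e-10 against XCR1). Slc29a3 and Xdh, like the macrophage sum, were lowest in XCR1, and the part of macrophage RNA in their levels was not tested. Dpp4, the surface protein CD26 that anchors adenosine deaminase in humans, stood at 206 ± 17.5, 210 ± 17.6 and 140 ± 12.01 CPM (0.000743 and 0.000422), and shares 232 exonic bases with Gm13561 on the other strand. Pnp, which splits inosine, was higher in CD301b than XCR1 (0.65 ± 0.14, 0.00123) and did not pass in SIRPa against XCR1 (0.35 ± 0.14, 0.0690). Of the 3979 exonic bases of Pnp, 718 are shared with Gm49342 on the same strand, so its reads are uncertain. The purine metabolism genes lower than in XCR1 in both comparisons were Ampd3, an AMP deaminase, and Ahcy, which releases adenosine from S-adenosylhomocysteine. Adk, adenosine kinase, was lower in SIRPa. Ampd3 stood at 43.9 ± 4.86 CPM in XCR1 against 22.1 ± 3.79 in CD301b (0.000823) and 15.3 ± 1.65 in SIRPa (6.61e-06). Ampd2, another AMP deaminase gene, had means of 25.8 CPM in XCR1, 25.8 in CD301b and 21.0 in SIRPa. It did not pass against XCR1 (edgeR adjusted p = 0.999 for CD301b and 0.377 for SIRPa).

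**Figure D4:**
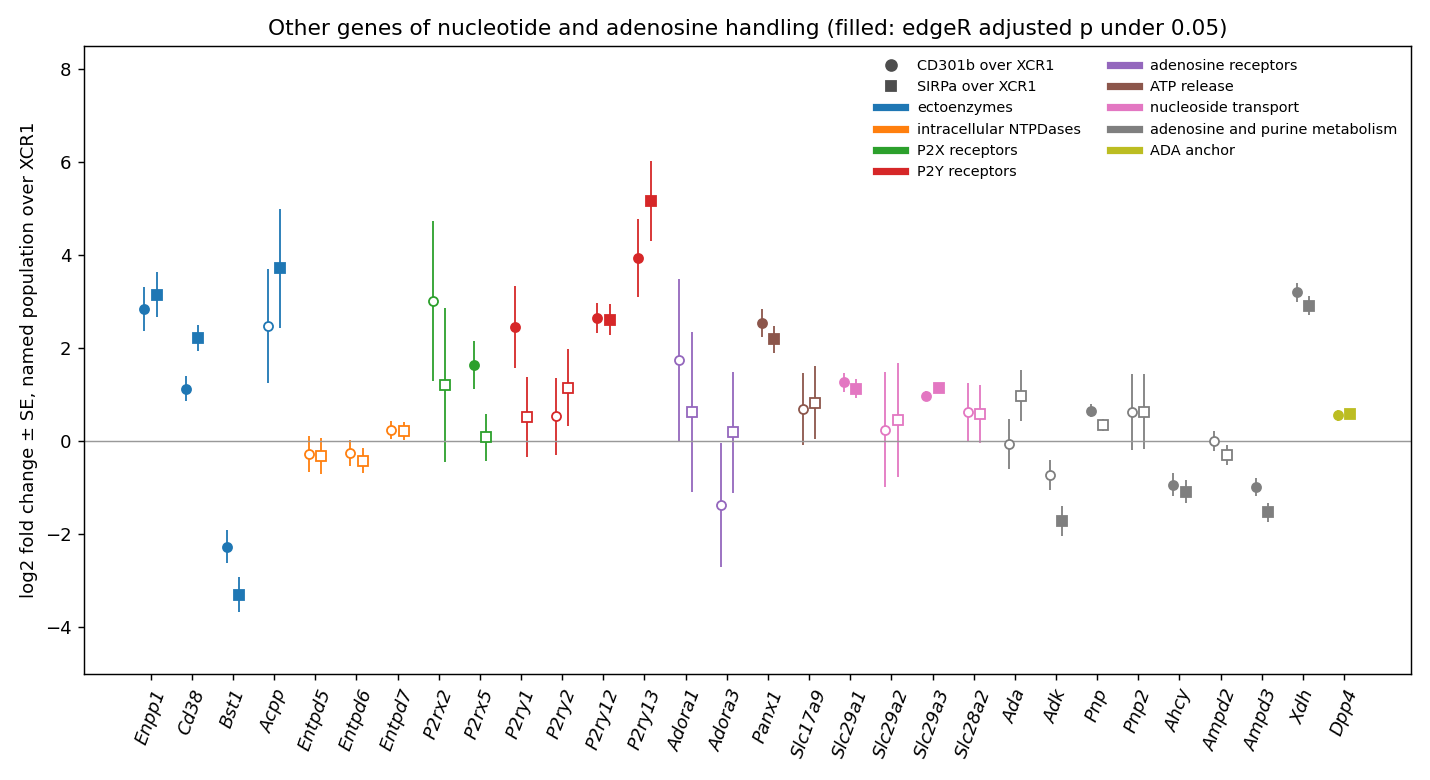
Log2 fold change with its SE (vertical axis) of CD301b (circles) and SIRPa (squares) over XCR1 for 30 of the 33 tested genes of the pathway list, coloured by role. Filled symbols have an edgeR adjusted p under 0.05, and the 3 genes with 0 counts in XCR1 are not drawn. Bst1, Ahcy and Ampd3 lie below 0 and filled in both comparisons, while Xdh, P2ry12, P2ry13 and Panx1 lie above 2 in both.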

How the data were processed

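RNA-seq libraries of 3 sorted thymic dendritic cell populations, 3 each, were analysed from the deposited table of raw read counts per gene symbol, which the authors made with HISAT2 and featureCounts on build mm10, per the submitters' processing notes. The sources used here give no versions, annotation or strand setting. A deposited table of log2 CPM values was used for a check alone: over 72 values of the members, from 4 CPM, it differed from the levels here by 0.11 to 0.13 (log2). In the count table, 24 symbols had become dates and held 0.125 to 0.187% of counts. They were left out. Genes were kept with filterByExpr (minimum count 10), scaled by TMM and tested with edgeR 4.0.16 (glmQLFit, robust, glmQLFTest, two-sided) in 1 fit over 9 libraries with population as the sole term, in R 4.3.3. Adjustment was by Benjamini-Hochberg over 15417 genes. SEs are the fold change over the square root of F. The procedure was tested on simulated data.

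The floor for a count of 0 is 3 counts and covers counting error alone. GENCODE M21 (mm10) gave positions and exon lengths, and it holds 97.0% of the table's symbols. The members and lists were chosen with earlier results of these data known. Named are all members and, from the pathway list, up to 3 called genes a comparison by smallest adjusted p and the 3 most abundant. Other pathway genes in the text were named after their values were seen. Alternatives were DESeq2 1.42.0, limma-voom (limma 3.58.1), RLE size factors, no low-count filter, the 6 libraries compared alone, a replicate block and leaving out each library.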

Additional observations from a re-analysis of the deposited data

How the results depend on the processing

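Counts of called genes against XCR1 stayed within 1.5 times of those reported under each of the 15 alternatives, at 4 members for CD301b and 4 to 6 for SIRPa, and 15 to 18 and 14 to 16 pathway genes. Between CD301b and SIRPa, the member count was 2 without the low-count filter, where Alpl also passed (adjusted p = 0.0285 on 8 counts), and 1 otherwise. The pathway count there was 2 with limma-voom, 3 without the filter, 3 with the 6 libraries alone, and 0 to 2 with 1 library left out. With the replicate number as a replicate block the counts were 1 member and 1 pathway gene, the latter P2rx5, higher in CD301b, in place of Cd38, and P2ry1, P2ry13 (CD301b) and Entpd3 (SIRPa) no longer passed against XCR1. Deviations of same-numbered libraries of different populations had correlations of 0.00305 to 0.0413, all positive. Those of differently numbered libraries ran from -0.0672 to 0.0481. These values cannot tell whether a number marks a shared animal, which the labels do not say. The numbers were not treated as pairs in the main fit. P2ry1 and P2rx5 passed in CD301b against XCR1 (edgeR adjusted p = 0.0494 and 0.0283), with up to 0.174 and 0.0970 over the alternatives, and Acpp in SIRPa (0.0399, up to 0.109). The call was lost in 11 of the 15 alternatives for P2ry1, in 4 for P2rx5 and in 6 for Acpp. Of the member results called, Adora2b in SIRPa against XCR1 was lost without XCR1 replicate 2, and the others kept their call under every alternative. Scaling moved the median of all genes by less than 0.1 (log2). Depth limits Nt5e, Alpl in SIRPa and Adora2b in XCR1, which rest on 0 to 49 counts a library.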

Other observations

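Enzymes for the step from ATP to AMP and from AMP to adenosine were unevenly represented in every library. Entpd1 had 2384 to 3289 counts a library and Nt5e had 0 to 49. Of the other listed surface enzymes that can act on AMP, Acpp (prostatic acid phosphatase) had 124 counts in all CD301b libraries together, against 296 for SIRPa and 21 for XCR1, and the intestinal and placental-like alkaline phosphatase genes Alpi and Alppl2 had 25 counts in 1 XCR1 library and 3 counts in 1 CD301b library, respectively, and 0 in the others. Alpl, with 986 counts in XCR1 libraries, was the most counted of these AMP-directed enzymes there, and Acpp was in SIRPa libraries. In CD301b, Acpp had 17, 24 and 83 counts and Nt5e 17, 31 and 45 in replicates 1, 3 and 4, so Acpp led in replicate 4 alone. These are counts per gene and not per length, and whether the proteins are present or active was not measured.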
